A study of Homo sapiens with 12 samples.

Results

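RNA levels were compared between MIA PaCa-2 cells given a short hairpin RNA (shRNA) against MSI1 and the same cells given a scrambled control shRNA. MIA PaCa-2 is an established cell line grown from a pancreatic carcinoma. The comparison used 6 of the 12 libraries of the series, 3 per group, chosen by their titles, and all 15021 of 24528 listed genes that passed a filter on low counts. The remaining 6 libraries, 3 of an Msi2 knockdown and 3 of a double knockdown, are used below only to ask which changes went with the Msi1 shRNA and whether they recurred. All shRNAs were delivered by lentivirus for 72 hours, with a GFP tag on the MSI1 virus and a Tomato Red tag on the MSI2 virus, and fluorescent cells were sorted before 200 ng of total RNA was taken. Double-knockdown cells were sorted as carrying both tags. The tag and gate of the control cells, like the number of hairpins per gene, is not given here by any source used. Every library thus comes from 1 cell line 72 hours after infection, and transcript levels do not show how much protein was lost. No label says that replicates were separate cultures, so the p-values cover the spread of these samples alone, which may be technical.

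MSI1 and MSI2 encode the Musashi proteins, RNA-binding proteins that recognise short motifs, mostly in the 3' untranslated regions of mRNAs, and change the stability and translation of those mRNAs. They are best known for keeping neural, intestinal and blood progenitors undifferentiated, in part through NUMB, an inhibitor of Notch signalling. In pancreatic cancer they have been studied as markers and drivers of stem-like and therapy-resistant cells. A change in RNA level after a knockdown can therefore be a direct effect on a bound mRNA or a later one, and these data do not separate them.

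Estimated counts summed to 35043671, 29763379 and 10948191 in the control libraries and to 36040967, 38922394 and 26759360 in the Msi1 knockdown libraries. Replicates of each group differed beyond sampling noise in every pair. A trend within groups, called the library trend, was the first principal component of deviations from group means. Its scores came from levels centred over all 12 libraries, so they hold group differences as well. Used below as a covariate, they can take out part of a group change. The trend set Msi1 knockdown replicates 2 and 3 apart, with scores of 1.37 and 1.38 against 0.09 in replicate 1 and -0.39 to 0.68 in control. The double knockdown lay at its other end, at -1.54 to -1.06. For that reason counts of groups of genes are also given with Msi1 knockdown replicate 1 as the only knockdown library (in short, with replicate 1 alone), a setting chosen after the data were seen, in which that library is assumed to vary like the other groups. For the labelled cell type, the epithelial keratins KRT8 (1153, 1193 and 1214 CPM in control) and KRT18 (1106, 1226 and 1203 CPM) and the mesenchymal filament VIM (5844, 5886 and 5873 CPM) were all abundant. The epithelial cadherin CDH1 was near the floor, at 0.841, 0.460 and 0.539 CPM in control. CPM are counts scaled by library total and TMM factor. CDKN2A, a gene known to be deleted in this line, had 0 counts in all 6 libraries. RPS26, SOD2, U2AF1 and NUMB also had 0 counts in all 6, so a 0 here does not by itself show that a gene is deleted or silent.

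The targeted transcript fell and stayed detectable. MSI1 stood at 4.93, 4.53 and 4.13 CPM in the control libraries and at 1.62, 1.94 and 1.96 CPM in the Msi1 knockdown libraries. Those levels came from 46 to 176 counts per control library and 54 to 77 per knockdown library, so MSI1 was a low transcript from the start. Its log2 change was -1.33 ± 0.16 (± standard error, edgeR adjusted p = 1.5e-06), and the libraries of the groups did not overlap. MSI2 fell as well, from 81.2, 80.7 and 86.3 to 52.1, 56.5 and 53.4 CPM (log2 change -0.61 ± 0.08, edgeR adjusted p = 6.8e-06). MET, the receptor for hepatocyte growth factor, fell by 0.52 on the log2 scale, from 41.7, 40.2 and 42.5 to 29.5, 27.4 and 30.0 CPM (edgeR adjusted p = 1.4e-05). HMGA2, a chromatin protein, had 0.841, 1.35 and 0.719 CPM in control and 0.987, 0.982 and 0.980 CPM in the knockdown, a log2 difference of -0.04 ± 0.27 (edgeR adjusted p = 0.92). Of 22 tested genes that have been linked to Musashi proteins, 7 rose and 9 fell, with a median log2 change of -0.03.

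Many transcripts changed, most of them by little. By edgeR, 5907 of 15021 genes (39.3%) passed an adjusted p of 0.05: 2772 (18.5%) were higher and 3135 (20.9%) lower in the Msi1 knockdown. A change of at least 2-fold was called for 432 genes (2.88%), 261 of them higher (1.74%) and 171 lower (1.14%). At 1.5-fold the numbers were 807 higher (5.37%) and 709 lower (4.72%). The median log2 change over all tested genes was -0.0018, and it is the value against which the medians of gene groups below can be read. In the fit with the library trend as covariate, 3146 of 15021 genes were higher and 3284 lower. List calls in that setting can be read beside those numbers. With Msi1 knockdown replicate 1 as the only knockdown library, 1520 genes passed as higher and 1655 as lower.

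**Figure D1:**
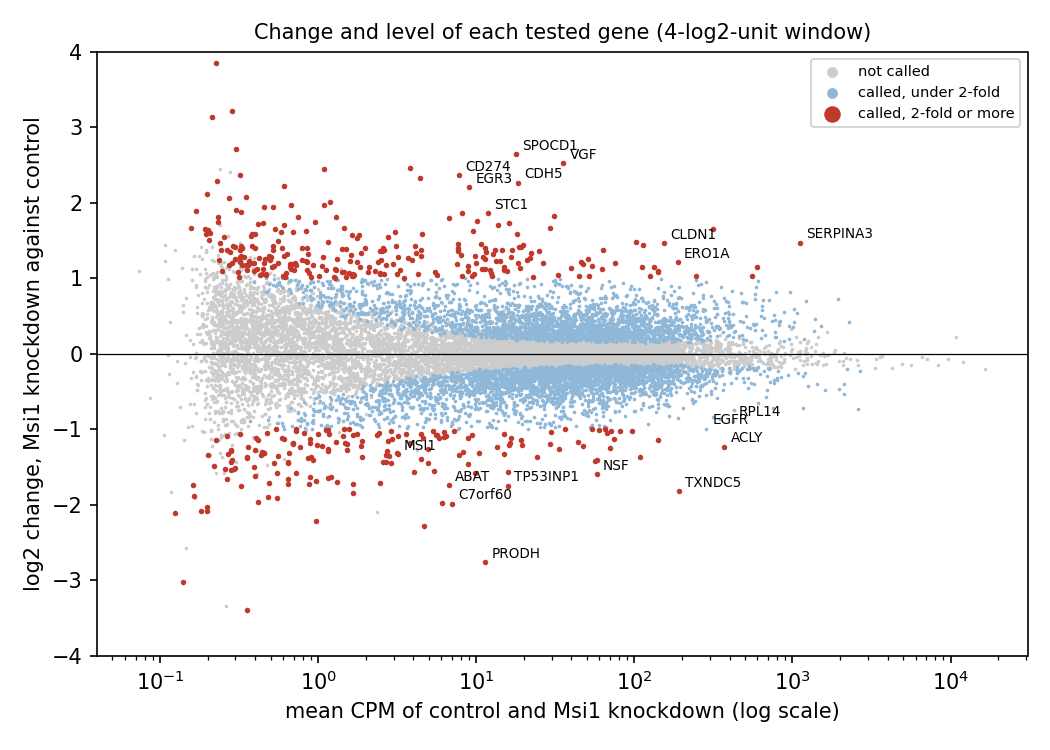
Log2 change (Msi1 knockdown against control, vertical axis) against the mean CPM of both groups (horizontal log axis) for 15019 tested genes, with 2 genes beyond 4 log2 units left out. Red points are the called genes that changed 2-fold or more, blue points other called genes and grey points genes not called; TXNDC5, ACLY and SERPINA3 lie far from 0 at high levels.

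The gene with the largest rise above 10 CPM was SPOCD1, known from piRNA-directed DNA methylation in germ cells. It stood at 5.02, 5.68 and 3.33 CPM in the control libraries and 27.97, 31.0 and 34.0 CPM in the knockdown libraries, a log2 change of 2.64 ± 0.14 (edgeR adjusted p = 5.9e-11). VGF, a secreted prohormone of the granin family, went from 9.14, 12.2 and 10.3 to 56.1, 67.4 and 58.5 CPM (log2 change 2.52 ± 0.10, edgeR adjusted p = 2.2e-12). In both genes the lowest knockdown library lay several-fold above the highest control library. CD274, the gene of the T cell inhibitor PD-L1, went from 2.33, 2.50 and 2.97 to 11.1, 13.6 and 14.2 CPM (log2 change 2.37 ± 0.13, edgeR adjusted p = 4.3e-11). CDH5, the cadherin of endothelial junctions, went from 5.94, 6.502 and 6.83 to 26.1, 31.7 and 33.6 CPM (2.26 ± 0.10, edgeR adjusted p = 4.6e-12). EGR3, an immediate early transcription factor, went from 3.31, 3.15 and 3.15 to 15.8, 14.5 and 14.3 CPM (2.21 ± 0.09, edgeR adjusted p = 3.9e-12). In bulk RNA a rise in every cell and a larger rise in some cells cannot be told apart. The choice of these genes required groups without overlap. The knockdown libraries of EGR3 lay close together.

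Further large rises were seen in every knockdown library. STC1, the secreted hormone stanniocalcin 1, had 5.63, 5.06 and 4.13 CPM in control and 15.99, 18.6 and 21.4 CPM in the knockdown, and ADAMTS4, a protease that cuts aggrecan, had 11.7, 15.2 and 14.9 and 41.2, 52.2 and 52.0 CPM. MMP14, a membrane-bound protease that activates other matrix proteases, had 5.72, 9.33 and 7.46 and 22.9, 26.1 and 24.8 CPM. B3GNT5, a glycosyltransferase that starts lacto-series glycolipids, RAB7B, a GTPase of late endosomes, NIPAL4, a membrane protein of the epidermis, and IRAK2, a kinase downstream of interleukin-1 receptors, rose by 1.86, 1.8, 1.76 and 1.70 on the log2 scale. The 7 genes of this paragraph rose by 1.70 to 1.86 (edgeR adjusted p from 4.3e-11 to 3e-07). Their choice, too, required groups without overlap.

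One of these promoters is shown because it holds a site of a known signal. The 250 bases before the start of VGF (RefSeq, GRCh38.p14, minus strand, chr7:101165570-101165819) hold 1 cAMP response element, TGACGTCA, in capitals below, 79 bases before the start. The same 8 letters were found in 3.25% of the 11874 tested genes that had a promoter in the RefSeq table.
VGF promoter: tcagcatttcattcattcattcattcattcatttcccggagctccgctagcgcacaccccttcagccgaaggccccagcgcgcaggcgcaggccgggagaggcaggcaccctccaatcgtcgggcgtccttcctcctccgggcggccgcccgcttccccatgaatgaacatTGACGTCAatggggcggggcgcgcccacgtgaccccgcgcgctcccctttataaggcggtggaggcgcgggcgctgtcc
Of the 386 genes with these letters, 22.0% rose and 20.7% fell, against 18.1% and 21.7% of all genes with a promoter, so a match by itself went with little difference in calls.

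The largest fall above 10 CPM was in PRODH, the mitochondrial enzyme that starts proline breakdown. It stood at 19.6, 21.6 and 17.98 CPM in control and 2.77, 2.97 and 3.12 CPM in the knockdown, a log2 change of -2.76 ± 0.11 (edgeR adjusted p = 2.2e-12). TXNDC5, a protein disulfide isomerase of the endoplasmic reticulum (ER), fell from 278, 321 and 295 to 69.2, 95.9 and 88.9 CPM (log2 change -1.82 ± 0.10, edgeR adjusted p = 6.5e-11). NSF, an ATPase that recycles SNARE proteins once membranes have fused, fell from 95.3, 78.5 and 85.7 to 28.8, 26.5 and 30.8 CPM (log2 change -1.60 ± 0.08, edgeR adjusted p = 2.5e-11). The groups were far apart for all 3 genes. TXNDC5 shares exons with a read-through transcript and NSF has partial copies in the genome, so their estimated counts depend on how shared reads were assigned. C7orf60, the older symbol of SAMTOR, a sensor of S-adenosylmethionine in mTORC1 signalling, fell from 10.9, 10.4 and 12.3 to 2.63, 2.90 and 2.87 CPM (-1.99 ± 0.13, edgeR adjusted p = 6.4e-10). TP53INP1, a p53-induced protein with roles in autophagy and cell death, fell from 27.3, 21.0 and 24.99 to 7.68, 7.07 and 7.01 CPM (-1.75 ± 0.10, edgeR adjusted p = 1.3e-10). ABAT, the enzyme that breaks down GABA, fell from 13.4, 8.08 and 9.44 to 3.07, 2.90 and 3.49 CPM (-1.74 ± 0.16, edgeR adjusted p = 4.9e-08). The control libraries of ABAT were more spread than those of the other genes, though the choice of all these genes required groups without overlap.

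ID2, an inhibitor of basic helix-loop-helix factors, the scaffold protein KANK4 and YPEL2 had log2 changes of -1.58, -1.57 and -1.46. SWAP70, which binds actin and acts on Rac, had 81.5, 78.3 and 87.8 CPM in control and 33.0, 28.5 and 31.0 CPM in the knockdown, and RAPGEF1, an exchange factor for the GTPase Rap1, 91.1, 79.5 and 82.3 and 31.3, 32.5 and 31.4 CPM. RNF144A, a ubiquitin ligase, had 36.9, 30.2 and 37.7 and 13.3, 13.0 and 13.9 CPM. Knockdown libraries of these 6 genes stayed close to each other, with edgeR adjusted p from 9e-12 to 4e-09. That they lay below all control libraries was a condition of the choice.

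**Figure D2:**
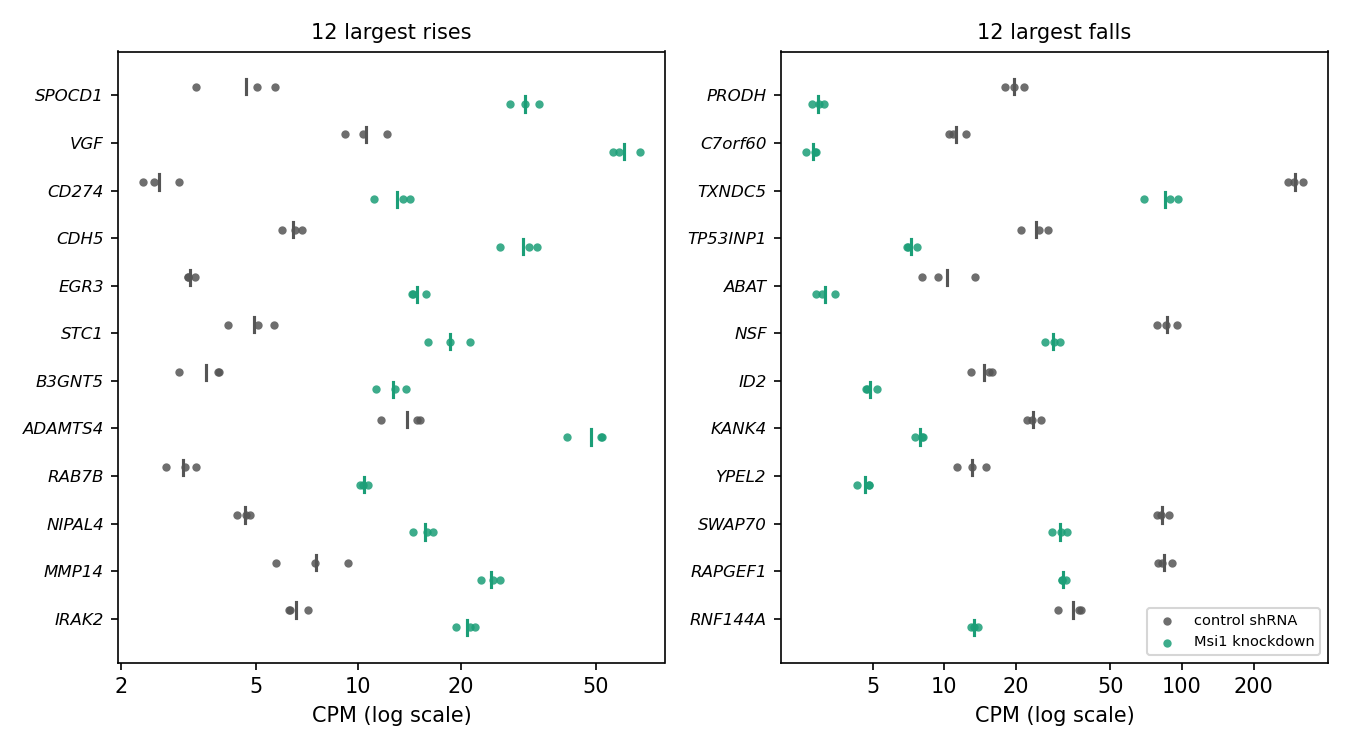
CPM in each library (points) and the mean of 3 libraries (bars) for the 12 largest rises and 12 largest falls above 10 CPM, on log axes. Control (grey) and Msi1 knockdown (green) points do not overlap, which was a condition for choosing the 24 genes. TXNDC5, NSF, SWAP70 and RAPGEF1 were the highest of the falls.

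Some of the most abundant transcripts moved too. Among genes whose higher group reached 200 CPM, the large rises included SERPINA3, an inhibitor of chymotrypsin-like proteases, from 565, 636 and 569 to 1462, 1797 and 1642 CPM. It changed by 1.47 ± 0.09 on the log2 scale (edgeR adjusted p = 3.8e-10). The tight junction protein CLDN1, the ER oxidase ERO1A, the glucosidase subunit GANAB and the protease inhibitor TIMP1 rose by 1.46, 1.21, 1.15 and 1.03. On the other side, ACLY, which makes cytosolic acetyl-CoA for lipid synthesis, fell from 539, 499 and 518 to 228, 219 and 216 CPM (-1.23 ± 0.06, edgeR adjusted p = 3.9e-11). EGFR, the receptor for epidermal growth factor, fell from 359.6, 420.1 and 357 to 158, 202 and 212 CPM (-0.99 ± 0.10, edgeR adjusted p = 2.4e-07). The ribosomal protein RPL14, the translation factor EIF5A and the COPII coat protein SEC23A fell by 0.89, 0.87 and 0.85 on the log2 scale. That no library of these genes crossed into the range of the other group was a condition of their choice. RPL14 and EIF5A have near-identical processed copies, so their counts are less certain.

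The genes were then grouped by function, with lists put together when earlier results of these data were known. In signalling by NF-kB, which turns on genes of inflammation and survival, 16 of 28 tested subunits and feedback genes rose and none fell, with a median log2 change of 0.37. With replicate 1 as the only knockdown library, 13 rose and the median was 0.34. TNFAIP3, which ends NF-kB signalling by editing ubiquitin, went from 12.6, 12.02 and 12.9 to 27.2, 28.8 and 32.0 CPM (log2 change 1.24 ± 0.08, edgeR adjusted p = 5.6e-10). NFKBIZ and NFKB2, a nuclear co-regulator and a subunit, rose by 0.98 and 0.60, BIRC3, an inhibitor of apoptosis, by 0.87, and NFKBIA, the classical inhibitor of the factor, by 0.51.

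Chemokines and cytokines rose alongside. Of 37 tested members, out of 73 in the table, 20 rose and 1 fell, with a median of 0.44, and 14 rose with replicate 1 alone. CXCL8, the neutrophil attractant interleukin-8, went from 73.6, 86.7 and 89.2 to 186, 176 and 186 CPM (log2 change 1.14 ± 0.08, edgeR adjusted p = 1.4e-09). CXCL1, a related chemokine, went from 52.0, 55.4 and 46.8 to 95.004, 97.8 and 97.1 CPM (0.90 ± 0.07). CSF3, the granulocyte growth factor, went from 14.3, 14.8 and 12.1 to 44.0, 43.9 and 45.5 CPM (1.67 ± 0.08), and TNFSF15, a ligand of the TNF family, from 1.15, 0.788 and 1.98 to 5.59, 6.42 and 6.90 CPM (2.45 ± 0.21). The chemokines thus rose from very different starting levels. LIF and CLCF1, cytokines of the interleukin-6 family, rose by 0.74 and 0.97, and TGFB3, a TGF-beta ligand, by 1.23. EdgeR adjusted p for these 7 genes ran from 2.5e-11 to 2.9e-07.

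Promoters of a chemokine and of a feedback gene are shown since both rose and both hold a sequence of the type that NF-kB binds. The letters searched were GGANTTTCC on either strand, in the 250 bases before each start, and the match is in capitals (RefSeq, GRCh38.p14, both genes on the plus strand). CXCL8 has its match 91 bases before the start, in chr4:73740319-73740568, and TNFAIP3 67 bases before, on the opposite strand, in chr6:137867009-137867258.
CXCL8 promoter: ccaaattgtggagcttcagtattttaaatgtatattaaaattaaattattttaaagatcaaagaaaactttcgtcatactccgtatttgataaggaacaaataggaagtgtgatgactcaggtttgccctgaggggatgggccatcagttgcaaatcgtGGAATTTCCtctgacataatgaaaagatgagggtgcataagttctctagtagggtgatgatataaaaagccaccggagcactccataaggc
TNFAIP3 promoter: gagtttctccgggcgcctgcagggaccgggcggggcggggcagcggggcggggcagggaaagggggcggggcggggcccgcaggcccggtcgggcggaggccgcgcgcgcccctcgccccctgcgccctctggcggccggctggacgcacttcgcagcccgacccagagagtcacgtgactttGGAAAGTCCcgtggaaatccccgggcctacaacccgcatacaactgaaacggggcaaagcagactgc
The letters occurred in 10 of 25 promoters of the NF-kB genes (40.0%) and in 8 of 27 of the chemokines (29.6%), against 243 of 11874 of all tested genes (2.05%). Over those 243 genes 56 rose (23.0%) and 53 fell (21.8%), with a median log2 change of 0.031, against 18.1% and 21.7% of all genes with a promoter. A match is a description of the sequence and not a sign of binding. The members of both lists were chosen by function, so the shares in them are no test of the site.

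Surface proteins that speak to immune cells changed unevenly. Of 22 tested checkpoint and stress ligands 11 rose and 3 fell, with a median of 0.23. That median was 0.10 with the library trend as covariate and 0.09 with replicate 1 alone. PDCD1LG2, the second ligand of PD-1, went from 0.196, 0.328 and 0 to 0.686, 0.831 and 1.05 CPM (log2 change 1.95 ± 0.41, edgeR adjusted p = 0.00087). ULBP2, a ligand of the natural killer cell receptor NKG2D, rose by 0.93, while ULBP1, another ligand of that receptor, fell by 0.52. PVR and PVRL2, adhesion proteins seen by the receptors CD226 and TIGIT, rose by 0.58 and 0.77.

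Antigen presentation by MHC class I rose with no member falling: 12 of 22 tested genes were higher and none lower, with a median of 0.28, and 10 were higher with replicate 1 alone. TAP2, a subunit of the peptide transporter, went from 63.6, 71.8 and 62.0 to 100.1, 119 and 118 CPM (0.77 ± 0.08, edgeR adjusted p = 2.3e-07). NLRC5, which activates class I genes, and PSMB8, a subunit of the immunoproteasome, rose by 0.54 and 0.45. HLA-C rose by 0.58, but its reads are shared among HLA genes. Interferon-stimulated genes as a whole did not follow: 10 of 42 rose and 12 fell (8 and 8 with replicate 1 alone), with a median of -0.02. IFIT1, HERC5 and DDX58, genes of antiviral defence, fell by 0.69, 0.56 and 0.42, whereas IFITM1 and BST2, which restrict viruses at membranes, rose by 0.60 and 0.62.

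Immediate early genes, which growth factors and stress switch on within minutes, were mostly higher. Of 24 tested, 15 rose and 2 fell, with a median of 0.35; 12 rose and 2 fell with replicate 1 alone. EGR1 went from 56.3, 61.8 and 57.1 to 121, 107 and 108 CPM (log2 change 0.93 ± 0.07, edgeR adjusted p = 3.6e-09), EGR4 from 0.476, 0.394 and 0.449 to 1.84, 1.66 and 1.67 CPM (1.96 ± 0.27), and IER3 from 11.5, 14.3 and 13.3 to 33.4, 31.4 and 27.997 CPM (1.26 ± 0.10). Of the genes that fell, KLF2, a transcription factor, had a log2 change of -0.59, and FOS went from 9.67, 12.8 and 8.09 to 5.40, 5.34 and 5.08 CPM (-0.99 ± 0.14, edgeR adjusted p = 1e-05). JUN, the partner of FOS, rose by 0.69. FOS and JUN thus moved in opposite directions. Among phosphatases that act on ERK and related kinases, DUSP1, DUSP5 and DUSP8 rose by 0.92, 1.19 and 0.91, and DUSP6, which is specific for ERK, had 0.35 and did not pass (edgeR adjusted p = 0.0502, below 0.05 in 6 of the alternatives), while SPRY2 and SPRED1, inhibitors of the same pathway further upstream, fell by 0.54 and 0.47. The wider list of ERK output genes had 10 of 24 higher and 5 lower (9 and 4 with replicate 1 alone), with a median of 0.09.

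In the EGF family, ligands and receptor moved apart. EREG went from 419, 428 and 392.1 to 708, 818 and 883 CPM (0.96 ± 0.08) and AREG from 54.0, 57.4 and 47.6 to 86.6, 94.3 and 97.6 CPM (0.80 ± 0.07), both ligands of EGFR, with edgeR adjusted p of 4.1e-08 and 7.3e-08. Those ligands rose in all 3 knockdown libraries, and EGFR itself, given above, fell in all 3. EPGN, a further ligand at low level, rose by 1.11, and ERRFI1, an inhibitor of the receptor, by 0.43, while LRIG1, which promotes the degradation of the receptor, fell by 0.66. Over the 12 tested members 7 rose and 3 fell, with a median of 0.41; with replicate 1 alone the counts were 5 and 2.

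Lists of genes that act outside the cell or at its surface had more rises than falls. Matrix proteases had 18 of 39 members higher and 2 lower (median 0.41), protease inhibitors 12 of 23 and 3 (0.23), integrins 8 of 20 and 2 (0.46), laminins, collagens and related matrix proteins 17 of 52 and 5 (0.28), and complement 11 of 24 and 0 (0.46). With replicate 1 alone the calls were 11 and 1, 7 and 1, 8 and 2, 8 and 2, and 5 and 1. These medians were 0.24, 0.17, 0.30, 0.15 and 0.40 with the library trend as covariate, and 0.20, 0.16, 0.39, 0.22 and 0.28 with replicate 1 alone. The medians stayed above 0 in those settings, but 4 of the 5 lists had medians below 0 in the double against the Msi2 knockdown, given further on.

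Among the proteases, MMP1, the interstitial collagenase, went from 14.7, 16.8 and 13.6 to 28.5, 30.9 and 33.1 CPM (1.02 ± 0.09), and ADAM9, a sheddase, from 315, 384 and 339 to 529, 633 and 650.2 CPM (0.80 ± 0.09). The lysosomal proteases CTSB and CTSL rose by 0.88 and 0.99. ADAM17, which releases EREG and AREG from the membrane, rose by 0.51. All 5 passed the edgeR test, with adjusted p from 2.3e-09 to 1.2e-05. TIMP2, an inhibitor of MMP14 and other matrix proteases, fell by 0.30, in contrast to TIMP1.

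ITGA2, the alpha chain of a collagen receptor, went from 0.925, 0.919 and 0.899 to 2.39, 3.12 and 2.65 CPM (log2 change 1.57 ± 0.18, edgeR adjusted p = 1e-06). ITGA3, the chain of a laminin receptor, went from 189, 216 and 178 to 328, 403 and 397 CPM (0.95 ± 0.09), and ITGB1, the beta chain that both pair with, from 1341, 1615 and 1418 to 2152, 2514 and 2582 CPM (0.73 ± 0.09). A receptor chain and its partner were thus both higher. ITGA5 and ITGB8 rose by 0.73 and 1.10. The basement membrane collagens COL4A1 and COL18A1 rose by 0.82 and 0.82, and COL6A3 by 0.74.

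In complement, a cascade of plasma proteins better known from liver, 11 of 24 tested members were called. C1R went from 13.7, 15.4 and 12.8 to 30.8, 39.8 and 38.1 CPM (1.36 ± 0.10) and C1S, its partner protease, from 24.2, 27.9 and 21.9 to 48.7, 57.6 and 58.0 CPM (1.13 ± 0.10). C3, the central component, went from 5.66, 6.57 and 6.29 to 10.998, 12.8 and 13.9 CPM (1.03 ± 0.11), and CFB, the protease of the alternative pathway, from 6.502, 6.90 and 4.76 to 14.3, 17.9 and 17.5 CPM (1.39 ± 0.14). Every knockdown library lay above every control library in all 4, with edgeR adjusted p from 5.4e-09 to 7.8e-07. CYR61 and CTGF, matricellular targets of YAP, rose by 1.03 and 1.06, though the list of YAP targets and pathway genes was split, 7 of 24 higher and 6 lower (6 and 2 with replicate 1 alone).

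Genes that fold secreted proteins were higher in many cases as well. Disulfide isomerases and ER oxidases had 22 of 29 tested members higher and 2 lower, with a median of 0.40, and ER chaperones and genes of the unfolded protein response 24 of 47 higher and 0 lower, with a median of 0.25. With replicate 1 alone the calls were 14 and 2, and 14 and 1, with medians of 0.28 and 0.14. ERO1A, which recharges the isomerases with oxidising power, went from 109, 121 and 110.3 to 239, 266 and 284 CPM, PDIA6 from 472, 531 and 489 to 743, 839.9 and 848 CPM (0.70 ± 0.08) and PDIA5 from 45.3, 55.8 and 49.4 to 83.9, 95.3 and 98.7 CPM (0.88 ± 0.08). TXNDC5 belongs to the same family and had the largest fall among transcripts of at least 200 CPM, against the direction of most of its family. HYOU1 and HSP90B1, chaperones of the ER, went from 152, 179 and 163 to 280.2, 345 and 349 CPM (0.98 ± 0.08) and from 880.2, 1056 and 849 to 1349, 1579.8 and 1570.0 CPM (0.69 ± 0.09). XBP1, a transcription factor of the unfolded protein response, rose by 0.61 and EDEM1, which sends misfolded proteins to degradation, by 0.55. EdgeR adjusted p for these 7 genes that rose ran from 4.3e-10 to 6.6e-06.

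Promoters of an ER chaperone and an isomerase are shown because they hold the ER stress response element (CCAAT and CCACG spaced by 9 bases), the composite site of ATF6 and its partner NF-Y. The matches, on either strand, are in capitals (RefSeq, GRCh38.p14). HSP90B1 (plus strand, chr12:103930160-103930409) has one 194 and one 89 bases before its start, and PDIA6 (minus strand, chr2:10812786-10813035, the second of its listed starts) has one 86 bases before.
HSP90B1 promoter: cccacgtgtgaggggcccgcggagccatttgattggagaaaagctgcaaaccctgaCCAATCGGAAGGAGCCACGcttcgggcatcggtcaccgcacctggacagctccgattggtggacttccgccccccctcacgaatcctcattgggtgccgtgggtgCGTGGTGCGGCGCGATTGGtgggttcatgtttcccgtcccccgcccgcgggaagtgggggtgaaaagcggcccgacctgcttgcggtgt
PDIA6 promoter: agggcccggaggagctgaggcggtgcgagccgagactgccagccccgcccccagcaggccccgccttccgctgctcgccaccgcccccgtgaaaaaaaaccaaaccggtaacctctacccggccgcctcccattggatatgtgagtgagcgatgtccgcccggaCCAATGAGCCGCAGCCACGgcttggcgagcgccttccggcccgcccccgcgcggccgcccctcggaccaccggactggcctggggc
Such an element was found in 6 of 41 promoters of the ER chaperone list (14.6%) and in 16 of all 11874 (0.135%). Of those 16 genes 6 rose (37.5%) and 3 fell (18.8%), against 18.1% and 21.7% of all genes with a promoter. All 6 that rose belong to the ER lists above, whose members were chosen by function. The share in the list is thus a description and no test of the element.

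Targets of ATF4 and CHOP, the arm of the stress response that controls amino acid supply, were divided: 12 of 34 rose and 13 fell (11 and 9 with replicate 1 alone). TRIB3 and SLC1A5, a pseudokinase and a glutamine transporter, rose by 0.73 and 0.65, and PHGDH, the first enzyme of serine synthesis, fell by 0.52, as did NUPR1 and JDP2, nuclear stress proteins, by 1.18 and 1.06. Amino acid transporters had 13 of 31 higher and 4 lower, with a median of 0.30 that became 0.05 with the library trend as covariate and 0.17 with replicate 1 alone. SLC7A2, which carries arginine, went from 2.10, 2.23 and 2.16 to 5.05, 5.66 and 4.87 CPM (1.27 ± 0.13, edgeR adjusted p = 2.9e-07). Zinc importers rose in part, SLC39A6, SLC39A8 and SLC39A14 by 0.86, 0.76 and 0.73.

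**Figure D3:**
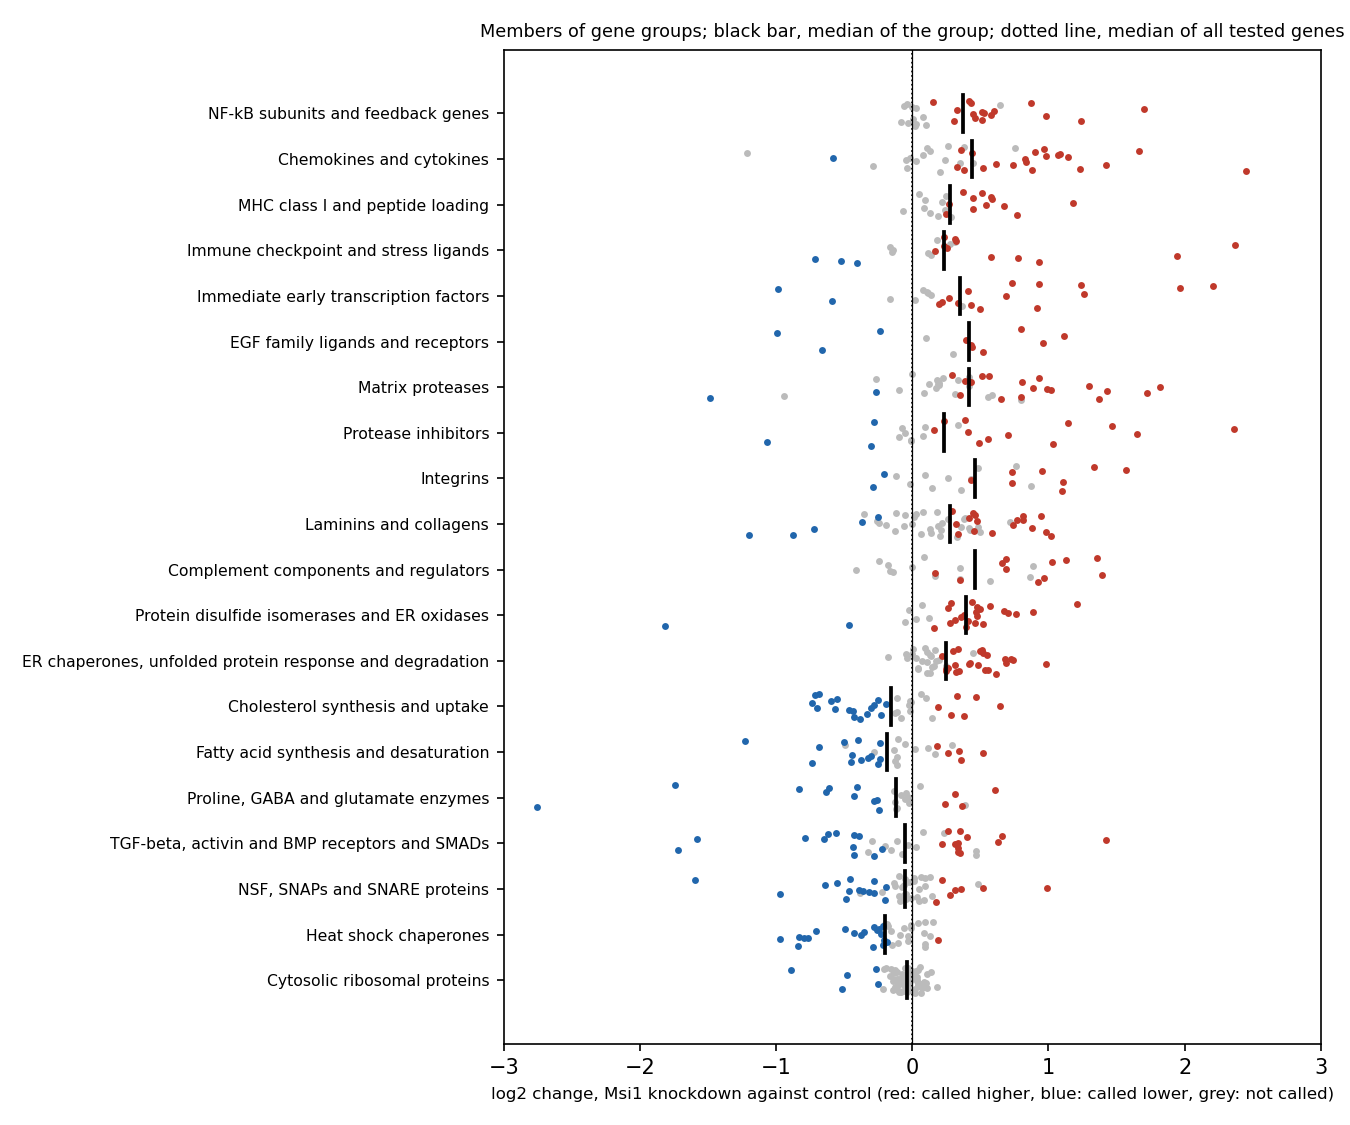
Log2 change (Msi1 knockdown against control, horizontal axis) of each tested member of 20 gene groups, with red for called higher, blue for called lower and grey for not called. Black bars are group medians and the dotted line is the median of all tested genes; the NF-kB, MHC class I, complement and ER chaperone groups have no blue points, and the isomerase group has TXNDC5 at -1.82.

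Genes of lipid synthesis fell more often than they rose. In cholesterol synthesis and uptake 6 of 34 rose and 17 fell (median -0.16), and in fatty acid synthesis and desaturation 5 of 30 rose and 13 fell (-0.19). With replicate 1 alone the medians were -0.23 and -0.29, further from 0. HMGCS1, which makes the precursor of the sterol pathway, went from 83.5, 79.7 and 89.9 to 58.0, 54.8 and 54.2 CPM (-0.59 ± 0.06), IDI1 from 70.8, 61.8 and 73.5 to 43.3, 40.0 and 39.9 CPM (-0.74 ± 0.08) and LSS, which closes the sterol rings, from 221, 199 and 187 to 124, 127 and 125 CPM (-0.70 ± 0.07). Each of the 3 was lower in all knockdown libraries. ACSS2, which like ACLY supplies acetyl-CoA, and SCD, the main desaturase, fell by 0.69 and 0.74. EdgeR adjusted p for these 5 genes ran from 3.5e-08 to 1.7e-06.

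Enzymes of proline, GABA and glutamate metabolism had 4 of 26 members higher and 10 lower (3 and 6 with replicate 1 alone), with a median of -0.12. Beside PRODH and ABAT, ALDH9A1 and ALDH5A1, dehydrogenases of the GABA pathway, fell by 0.83 and 0.61, and GFPT1, the entry enzyme of hexosamine synthesis, by 0.63. Consecutive enzymes of GABA breakdown, ABAT and ALDH5A1, were thus both lower. The glucose transporter SLC2A3 went from 40.4, 48.6 and 48.9 to 92.6, 114 and 109 CPM (1.20 ± 0.09, edgeR adjusted p = 2.6e-09), and PDK4, a kinase that holds back pyruvate oxidation, fell by 1.44, within a list of glucose genes that had 10 of 38 higher and 8 lower (7 and 5 with replicate 1 alone).

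Regulators of growth arrest were split. CDKN1A, the cyclin-dependent kinase inhibitor p21, went from 5.41, 6.86 and 5.93 to 15.03, 12.8 and 13.98 CPM (log2 change 1.20 ± 0.10, edgeR adjusted p = 2.7e-08). Other arrest genes fell: CDKN1B by 0.44, CDKN1C by 0.80, RB1 by 0.63, CCNG2 by 1.07 and BTG2 by 0.83. Of 27 G1 genes 7 rose and 12 fell, and of 37 p53-linked genes 11 rose and 17 fell, with medians of -0.19 and -0.17, which were -0.08 and 0.00 with replicate 1 alone. Replication and mitosis had small changes whose balance depended on the setting: 6 of 53 S phase genes rose and 9 fell (median -0.04), and 3 of 58 mitotic genes rose and 14 fell (-0.07), none of them by 1.5-fold. The S phase counts were 5 and 1 with replicate 1 alone and 13 and 5 with the trend covariate, and the mitotic counts 6 and 4 with replicate 1 alone and 14 and 11 with the trend covariate, so rises outnumbered falls in those settings. FOXM1, a factor that drives mitotic genes, fell by 0.39 and MCM3, a subunit of the replicative helicase, by 0.53.

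In TGF-beta and BMP signalling, 12 of 36 members rose and 12 fell (6 and 9 with replicate 1 alone), and the falls included classical outputs of BMP. ID1 went from 61.9, 63.0 and 66.5 to 40.2, 36.0 and 34.3 CPM (-0.79 ± 0.08), ID2 from 15.4, 12.9 and 15.9 to 4.74, 4.71 and 5.23 CPM (-1.58 ± 0.11) and SMAD6, an inhibitor that BMP induces, from 2.30, 2.73 and 2.70 to 0.521, 0.982 and 0.799 CPM (-1.72 ± 0.21). Each was lower in all knockdown libraries. BMPR1A, a BMP receptor, fell by 0.62, while SMAD3, which carries TGF-beta signals, rose by 0.34 and the activin subunit INHBA by 1.43. INHBA was chosen after its value was seen. EdgeR adjusted p for these 6 genes ran from 1.6e-09 to 0.024. The INHBA call was lost without control replicate 1 (edgeR adjusted p = 0.056), control replicate 3 (0.0516) or Msi1 knockdown replicate 2 (0.112), and with Msi1 knockdown replicate 1 alone (0.339). Notch genes had 9 of 33 higher and 5 lower (median 0.00) and WNT genes 10 of 45 and 7 (0.06). With replicate 1 alone the medians were -0.04 for Notch and -0.05 for WNT genes.

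Lists of vesicle traffic and turnover did not move together, and the median of the SNARE list had no stable sign. Of 50 SNARE proteins and cofactors 7 rose and 14 fell, with a median of -0.06. With the library trend as covariate 11 rose and 17 fell, and the median was 0.02. It was also 0.02 with replicate 1 alone. Besides NSF, the falls included STXBP5, a binder of syntaxins, at -0.97, SNAP23 at -0.56 and NAPA, the adaptor through which NSF works, at -0.45. Autophagy genes had 5 of 43 higher and 14 lower (median -0.13, 3 and 7 with replicate 1 alone), among them RB1CC1 and ULK2, parts of the kinase complex that starts the process, at -0.60 and -0.50. Lysosomal genes went the other way, with 27 of 63 higher and 10 lower (median 0.19; calls 13 and 6 with replicate 1 alone, median 0.05). CTSC, a lysosomal protease, and GLA, alpha-galactosidase, rose by 0.96 and 0.75. Caspases and death receptors had 17 of 31 higher and 5 lower (10 and 2 with replicate 1 alone): CASP1, the caspase of inflammasomes, went from 6.56, 6.57 and 6.29 to 16.9, 16.7 and 15.8 CPM (1.34 ± 0.08), with an edgeR adjusted p of 2.5e-10.

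Among heat shock chaperones of the cytosol and mitochondria, with their cofactors, 1 of 41 rose and 20 fell (1 and 7 with replicate 1 alone), with a median of -0.20, which was -0.08 with the library trend as covariate and -0.07 with replicate 1 alone. HSPA2 and PTGES3, an HSP70 and the p23 cofactor of HSP90, fell by 0.97 and 0.84, and HSF2, a heat shock factor, by 0.43. HSPA1A and HSPA1B fell by 0.83 and 0.77, but are near-identical, so only their joint level is firm. RNA-binding proteins other than Musashi had 5 of 43 members higher and 16 lower (median -0.11, 6 and 9 with replicate 1 alone). EIF4EBP2, a repressor of cap-dependent translation, went from 212, 165 and 203 to 91.8, 84.1 and 87.1 CPM (-1.14 ± 0.08, edgeR adjusted p = 2.3e-09), FXR1 and FMR1, of the fragile X family, fell by 0.54 and 0.44, and PUM2 and STAU2, repressor and transport proteins of mRNA, by 0.40 and 0.54. Cytosolic ribosomal proteins had 0 of 79 higher and 5 lower (median -0.04), with 0 and 2 with replicate 1 alone and 40 and 3 with the trend covariate (median 0.13). Nuclear genes of the respiratory chain had 7 of 78 higher and 3 lower (median 0.01), with 11 and 0 with replicate 1 alone and 39 and 1 with the trend covariate (median 0.14). Both lists thus depended on how the library trend was treated.

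Chromatin genes gave small falls with a few larger rises. Lysine methyltransferases and demethylases of histones had 6 of 53 higher and 17 lower (median -0.08, 3 and 12 with replicate 1 alone), with KDM6B, a demethylase of H3K27, at 0.91 and DOT1L, the methyltransferase of H3K79, at 0.72. Histone genes had 1 of 41 higher and 13 lower (1 and 5 with replicate 1 alone). Their extremes were a near-identical pair of H2A genes between which the estimated counts switched, and neither is read here. H19, an imprinted noncoding RNA, went from 22.7, 18.2 and 23.5 to 8.996, 8.56 and 7.77 CPM (-1.33 ± 0.11, edgeR adjusted p = 2.2e-08). CLOCK and NR1D2, parts of the circadian clock, fell by 0.86 and 0.87, and BHLHE41, a repressor of it, rose by 0.92.

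Markers of other cell types were followed because CDH5 belongs to one. Of 5 tested endothelial markers CDH5 and ROBO4 rose and the other 3 did not pass, and the summed level of that list ran from 19.4 to 20.5 CPM in control and 48.6 to 56.1 CPM in the Msi1 knockdown. Blood cell markers summed to 17.9 to 20.6 CPM in control and 37.4 to 44.4 CPM in the Msi1 knockdown, where CD68, a lysosomal protein, rose by 1.20. Fibroblast markers summed to 611 to 746 CPM in control and 668 to 811 CPM in the Msi1 knockdown. Acinar and ductal markers summed to 16.99 to 19.1 CPM in control and 29.1 to 36.2 CPM in the Msi1 knockdown. Of those 9 markers 8 did not pass the filter, and CPA1, CELA3A and PNLIP were at 0 in all 6 libraries. The 1 tested marker rose by 0.92, but fell by 0.77 in the double against the Msi2 knockdown. Endocrine markers went the other way, from 14.02 to 15.98 CPM in control to 12.27 to 12.46 CPM in the Msi1 knockdown. Of these, too, only 1 was tested, with a log2 change of -0.33. The part of other cells in the rises of CDH5 and CD68 was not tested.

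The Msi2 knockdown, made with the same kind of virus in the same cells, allowed a test of which levels differed between the 2 knockdowns. They also differ by the tag of the virus and by the sort on it, which cannot be told apart from the target. By edgeR, 6181 genes (41.1%) differed between the Msi1 and the Msi2 knockdown, 2837 higher (18.9%) and 3344 lower (22.3%) in the Msi1 knockdown. TXNDC5 stood at 69.2, 95.9 and 88.9 CPM in the Msi1 and 273, 292 and 292 CPM in the Msi2 knockdown libraries, a log2 difference of -1.76 ± 0.10 (edgeR adjusted p = 1.5e-10). SWAP70 stood at 33.0, 28.5 and 31.0 and 90.4, 80.3 and 91.5 CPM (-1.50 ± 0.07). In both genes the Msi2 knockdown libraries lay near or above the control libraries and the Msi1 knockdown libraries far below. The other largest differences downward were UCP2, a carrier of the inner mitochondrial membrane, at -1.75, CARNMT1, which methylates carnosine, at -1.54, and ITFG3 at -1.46.

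Genes higher in the Msi1 than in the Msi2 knockdown were led by SPOCD1, with 27.97, 31.0 and 34.0 against 6.88, 7.96 and 5.69 CPM, a log2 difference of 2.18 ± 0.12 (edgeR adjusted p = 1.9e-10). RAB7B had 10.6, 10.1 and 10.3 against 2.28, 2.61 and 2.50 CPM (2.06 ± 0.10) and EGR3 15.8, 14.5 and 14.3 against 3.79, 3.88 and 3.89 CPM (1.95 ± 0.08). MSI2, the target of the other shRNA, differed by 1.85, TGFB3 by 1.76 and the potassium channel KCND1 by 1.55. Values of NSF (-1.33 ± 0.08), EGFR (-1.07 ± 0.10) and ACLY (-1.12 ± 0.06) also set the knockdowns apart, with edgeR adjusted p of 2.9e-10, 1e-07 and 1.7e-10. TNFAIP3 differed by 0.79 ± 0.07 (edgeR adjusted p = 6.6e-08) and CXCL8 by 0.05 ± 0.08 (0.59). Of the 28 tested NF-kB genes 9 were higher in the Msi1 than in the Msi2 knockdown and 2 lower.

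**Figure D4:**
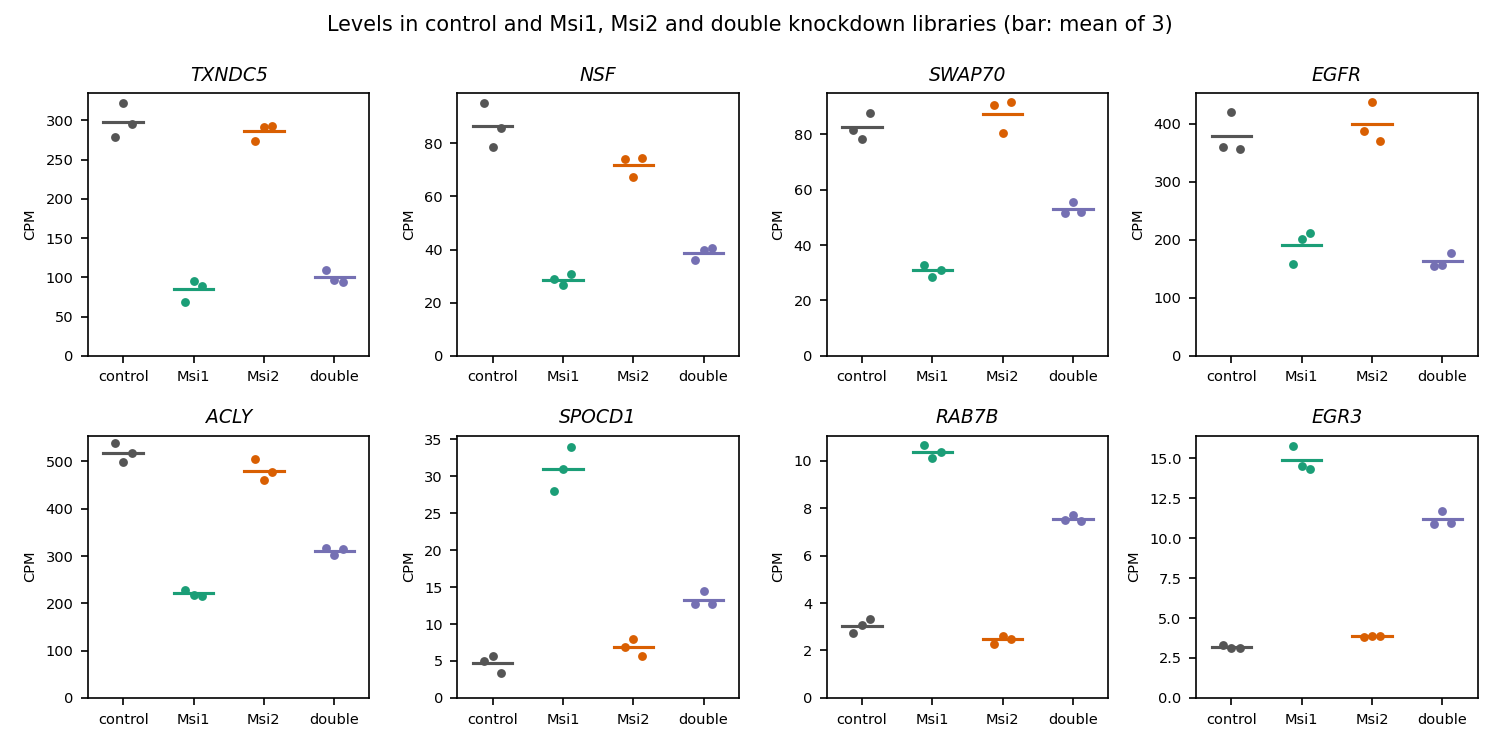
CPM in each library (points) and means of 3 (bars) for 8 genes in the control, Msi1, Msi2 and double knockdown groups, on linear axes from 0. TXNDC5, NSF, SWAP70, EGFR and ACLY are lower, and SPOCD1, RAB7B and EGR3 higher, in the Msi1 knockdown than in control. The changes of NSF, SWAP70, ACLY and SPOCD1 had the same direction in the double against the Msi2 knockdown but were smaller.

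The double knockdown gave a second look at the Msi1 shRNA with other libraries. The double against the Msi2 knockdown differs by the Msi1 shRNA and shares no library with the comparison above. It also differs by a second virus and by the sort on both tags, which cannot be told apart from the shRNA. In it MSI1 fell by 1.83 on the log2 scale, and 6792 genes passed the edgeR test (45.2%), 3413 higher (22.7%) and 3379 lower (22.5%). With the library trend as covariate 2697 passed, and the double knockdown libraries lie at one end of that trend. Of the 171 genes at least 2-fold lower in the Msi1 knockdown, 145 (84.8%) had the same sign here and 94 (54.97%) were called lower, with 5 called higher. Of the 261 at least 2-fold higher, 186 (71.26%) had the same sign and 105 (40.23%) were called higher, with 27 called lower. Over the 432 genes Pearson's r between the 2 sets of log2 changes was 0.553, against 0.19 over all tested genes, a description across genes that are not independent replicates. With the library trend as covariate these values were 0.65 and 0.319.

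Single genes recurred to different degrees. TXNDC5 had 273, 292 and 292 CPM in the Msi2 and 109, 96.3 and 94.6 CPM in the double knockdown, a log2 change of -1.51 ± 0.09 (edgeR adjusted p = 2.5e-09). PRODH had 6.75, 8.13 and 6.61 and 1.97, 1.98 and 2.28 CPM (-1.79 ± 0.11), and EGR3 3.79, 3.88 and 3.89 and 10.9, 11.7 and 10.96 CPM (1.53 ± 0.08). For these genes the fall or rise was seen in both pairs of groups without overlap, which in the first pair was a condition of their choice. NSF, SWAP70, RAPGEF1, EGFR and ACLY changed by -0.89, -0.73, -0.76, -1.29 and -0.63, and VGF, SPOCD1 and CDH5 by 1.06, 0.96 and 0.74. CD274, by contrast, had 6.20, 6.43 and 5.93 CPM in the Msi2 and 7.86, 9.22 and 8.27 CPM in the double knockdown (0.45 ± 0.10, edgeR adjusted p = 0.0014). CFB fell where it had risen, from 14.2, 16.5 and 13.0 to 9.03, 7.58 and 10.5 CPM (-0.70 ± 0.12).

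Groups of genes recurred unevenly as well. Immediate early genes had 17 of 24 members higher and 1 lower in the double against the Msi2 knockdown (median 0.47), chemokines and cytokines 15 of 37 and 2 (0.26), and NF-kB genes 14 of 28 and 5 (0.17). Cholesterol genes had 2 of 34 higher and 17 lower (-0.19) and fatty acid genes 7 of 30 and 12 (-0.18). These 5 medians had the same sign as with the Msi1 shRNA alone. With the library trend as covariate they were 0.33, 0.34, 0.08, -0.09 and -0.03, in the same order. The calls in that setting were 15 higher and 1 lower, 13 and 1, 6 and 2, 1 and 6, and 0 and 6.
Other lists went the opposite way. Matrix proteases had 5 of 39 higher and 12 lower (median -0.23), integrins 3 of 20 and 7 (-0.22), laminins and collagens 3 of 52 and 18 (-0.21), and complement 2 of 24 and 8 (-0.31), while protease inhibitors had 6 of 23 and 5 (0.09). ER chaperones had 6 of 47 higher and 20 lower (-0.14), disulfide isomerases 6 of 29 and 10 (-0.07), the EGF family 2 of 12 and 5 (-0.23), and checkpoint and stress ligands 3 of 22 and 8 (-0.19). Heat shock chaperones rose in 23 of 41 cases and fell in 3 (0.25), and S phase and mitotic genes rose in 44 of 53 and 44 of 58 with none falling. MHC class I genes had 4 of 22 higher and 6 lower (0.02), and caspases and death receptors 7 of 31 and 10 (-0.01). With the library trend as covariate the medians were 0.07 for matrix proteases, 0.11 for integrins, 0.07 for laminins and collagens, -0.01 for complement, 0.03 for ER chaperones and 0.06 for heat shock chaperones. None of these lists kept the size it had without that covariate. The medians were 0.20 for protease inhibitors, 0.07 for disulfide isomerases, -0.15 for the EGF family and 0.04 for checkpoint and stress ligands. S phase genes still had 25 of 53 higher and 0 lower (0.22, from 0.37), and mitotic genes 20 of 58 and 2 (0.15, from 0.31).

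**Figure D5:**
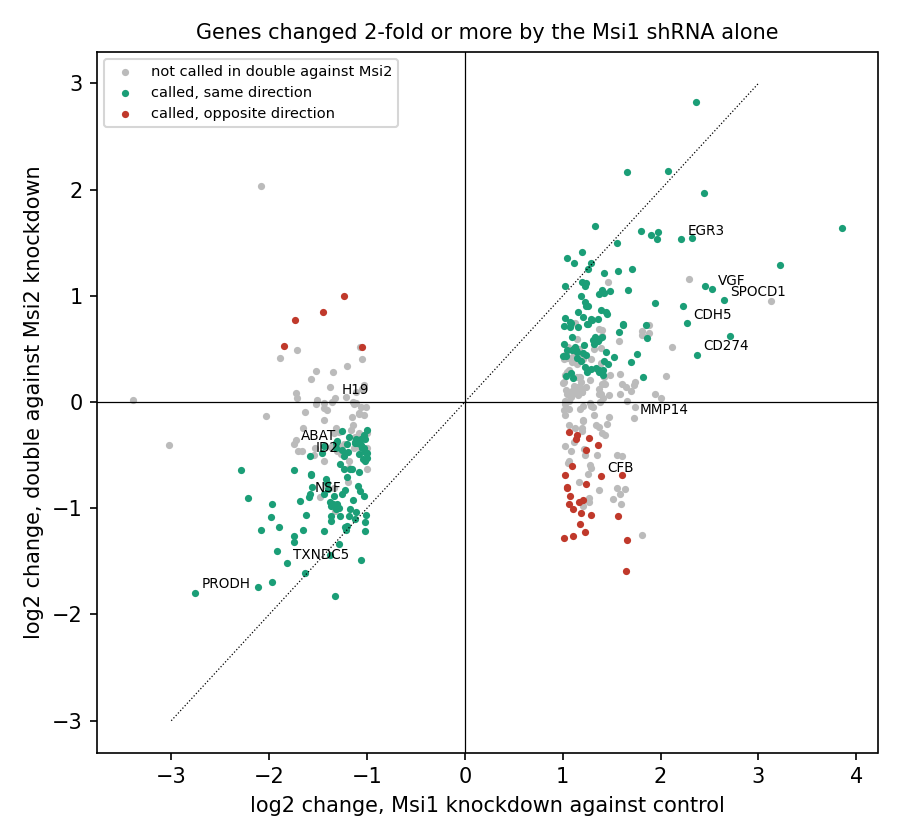
Log2 change with the Msi1 shRNA alone (horizontal axis) and in the double against the Msi2 knockdown (vertical axis) for 430 of the 432 genes that changed 2-fold or more by the former, with the dotted line marking equal change. Green points were called in the same direction in both, red points in opposite directions and grey points in the first only; TXNDC5 lies near the line, PRODH and EGR3 between the line and no change, and CFB and MMP14 below 0 on the vertical axis.

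The difference between the 2 backgrounds was itself tested, as an interaction. It passed for 6058 genes (40.3%), but for 592 with the library trend as covariate. The scores of that covariate differ between the groups, and the part of group changes in this drop was not tested. Of the 261 genes 2-fold higher with the Msi1 shRNA alone 169 differed between backgrounds, and of the 171 lower 91 did, before that covariate. FOS showed the largest difference upward, with 9.67, 12.8 and 8.09 CPM in control, 5.40, 5.34 and 5.08 in the Msi1, 2.81, 2.82 and 3.31 in the Msi2 and 5.98, 5.55 and 7.07 in the double knockdown, a difference of 2.04 ± 0.19 (edgeR adjusted p = 8.7e-07). FOS thus fell with the Msi1 shRNA alone and was higher with it in the other background. The dehydrogenase DHRS2, H19 and ABAT differed by 1.84, 1.36 and 1.35, and CFB, CD274 and MMP14 by -2.09, -1.92 and -1.87. PFN1P2, a processed copy of profilin, also stood here at -1.82, but shares its reads with the parent gene.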

How the data were processed

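The authors deposited 1 table of estimated counts for 24528 genes, all whole numbers, unscaled. The submitters' processing notes list kallisto 0.42.1, CASAVA 1.4 and hg19 and give no roles. Kallisto shares reads among similar transcripts by likelihood, which makes counts of near-identical genes uncertain. How transcripts were summed to genes, and whether strand was kept, is not given in the sources used here.

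Counts were used as deposited in edgeR 4.0.16 (R 4.3.3): filterByExpr by group (minimum count 10), TMM factors, 1 quasi-likelihood model of all 12 libraries (8 residual degrees of freedom), two-sided tests and Benjamini-Hochberg adjustment over 15021 genes at 0.05. Standard errors are the log2 change divided by the square root of F. Tests of single genes rest on this model, since an exact permutation of 3 against 3 libraries cannot go below p = 0.1. There were 4 comparisons: Msi1 knockdown against control, against Msi2 knockdown, double against Msi2 knockdown, and the difference between the first comparison and the last of these.

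Genes were named if they were MSI1, MSI2, MET or HMGA2; the 12 largest rises and falls of at least 10 CPM without overlap between groups; the 6 largest each way of at least 200 CPM; up to 6 members with the smallest p and the 3 most abundant of each gene list; and the largest differences in the other comparisons. That rule picked 485 genes; 305 of them are not reported here, and those named were chosen with their values and their behaviour under the alternatives known. FOS in the first comparison, KLF2, DUSP6, CDKN2A, CDH1, other genes at 0 and the defining markers at 0 were named outside that rule. They were chosen after their values were seen. CDH1 and the genes at 0 are not among the 184 genes counted below. The members and the 59 gene lists, with 7 marker lists, were chosen with earlier results of these data known. Of 2674 list entries 2670 matched the table through current or older symbols. Promoters came from the RefSeq table at hand, which held 11874 of the tested genes. They are in GRCh38.p14, and no hg19 coordinate was used. Alternatives were DESeq2 1.42.0, RLE factors, no filter and a filter of 5 CPM, the replicate number as a block, libraries thinned to the shallowest, the library trend (the first component, 54.1% of within-group variance) as a covariate, only the compared groups, and leaving out each library. The scripts were tested on simulated data.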

Additional observations from a re-analysis of the deposited data

Results flagged for a closer look

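The change with the Msi1 shRNA differed in size with and without the Msi2 knockdown for 151 of the 184 genes named in the text, by an edgeR interaction test at adjusted p below 0.05, and for 360 of the 485 genes that the naming rule picked. Because these were so many, narrower conditions were set after the counts had been seen. With the library trend as covariate the test still passed, in the same direction, for 94 and 136 of them. A difference of at least 1 log2 unit in both fits left 22 of the named genes, given here, and 26 of those the rule picked. They are therefore a selection by size and not a separate test. Each value is the log2 change in the double against the Msi2 knockdown minus that in the Msi1 knockdown against control.

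Among secreted proteins and matrix proteases the differences were -1.59 for ADAMTS4, -1.87 for MMP14, -1.76 for C1R, -1.71 for C3, -2.09 for CFB, -1.34 for CTGF, -1.41 for SERPINA3 and -1.46 for VGF. Among surface proteins and carriers they were -1.92 for CD274, -1.52 for CDH5, -1.19 for IFITM1, -1.31 for NIPAL4, -1.38 for SLC2A3 and -1.60 for SLC7A2. CASP1 differed by -1.03, IRAK2 by -1.32, the intermediate filament NES by -1.51, GANAB by -1.45 and SPOCD1 by -1.68. All of these rose with the Msi1 shRNA alone, and in the other background their log2 changes ran from -0.70 in CFB to 1.06 in VGF.

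In the other direction stood FOS at 2.04, DHRS2 at 1.84 and SMAD6 at 1.36. FOS and DHRS2 had log2 changes of -0.99 and -0.51 with the Msi1 shRNA alone and 1.05 and 1.33 in the double against the Msi2 knockdown, while SMAD6 fell by 1.72 in the first and had -0.36 in the second. The double knockdown libraries carried both viruses and lay apart on the library trend, and the part of either in these differences was not tested.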

How the results depend on the processing

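The 5907 calls of the Msi1 knockdown against control came to 4926 to 6430 under DESeq2, RLE factors, both other filters, thinned libraries, the trend covariate and the compared groups alone, and to 4268 to 6206 when single libraries were left out, the lowest without control replicate 1. Rises ran from 2082 to 2918 and falls from 2186 to 3288 over those single omissions. With replicate 1 as the only Msi1 knockdown library, which leaves fewer samples, 3175 genes were called, 1520 higher and 1655 lower. Calls of at least 2-fold numbered 158 under the stricter filter, which tests fewer genes, and 372 to 561 with single libraries left out. Against the Msi2 knockdown the count was 3520 with replicate 1 alone and 4841 to 6393 with single omissions. The double against the Msi2 knockdown gave 2697 with the trend covariate and 5058 to 7185 with single omissions. The difference between backgrounds gave 592 with that covariate, 1723 with Msi1 knockdown replicate 1 alone, and 4379 to 7090 with single omissions; the cause was not tested.

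Replicate numbers could not be taken as pairs: deviations of same-numbered control and Msi1 knockdown libraries correlated at 0.35, 0.59 and -0.30, and control replicate 3 went best with Msi1 knockdown replicate 1. With the replicate number as a block (replicate block), the 4 comparisons gave 6336, 6694, 7304 and 6546 calls. Of the 485 genes that the naming rule picked, 367 had the same call in each of the 15 alternatives that tested them and 118 lost or gained one; 27 of the 485 were not tested in at least 1 alternative, the stricter filter and thinned libraries among them. The text names mostly genes of the first kind (179 of 184, of which 9 were not tested in at least 1 alternative, with DHRS2, DUSP6, INHBA, KRT8 and KRT18 the exceptions), a choice made with these outcomes known, so the 179 say nothing about how stable calls are in general. None of these 184 genes reversed its direction as a call. Depth limits the low transcripts most, MSI1 and TNFSF15 among them, and control replicate 3 was the shallowest library.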

Other observations

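Several lists not described above gave calls that depended on the setting or were mixed. Nuclear genes of mitochondrial ribosomes had 9 of 76 tested members higher and 4 lower (median log2 change 0.02), proteasome subunits 12 of 48 and 3 (0.08), aminoacyl-tRNA synthetases 4 of 40 and 9 (-0.04) and splicing regulators 4 of 54 and 10 (-0.06). With the library trend as covariate these were 32 higher and 3 lower, 34 and 2, 8 and 8, and 11 and 15, and with replicate 1 alone 13 and 0, 17 and 1, 3 and 2, and 2 and 4. Genes of NRF2 and antioxidant defence had 9 of 37 higher and 14 lower (7 and 3 with replicate 1 alone), with NQO1 and CAT, a quinone reductase and catalase, at log2 changes of -0.66 and -0.63 and MAFF, a small partner of NRF2, at 0.70. Axon guidance genes had 16 of 57 higher and 7 lower (median 0.13), but 12 and 14 with the trend covariate and 5 and 7 with replicate 1 alone (medians -0.03 and -0.05), so the direction turned. Its member with the largest rise was SEMA7A, a membrane-anchored semaphorin, from 2.30, 2.43 and 2.43 CPM in the control to 4.91, 6.65 and 6.32 CPM in the knockdown libraries (1.33 ± 0.14, edgeR adjusted p = 4.9e-07). Among intermediate filaments NES, which encodes nestin, went from 8.83, 10.3 and 7.46 to 25.8, 28.6 and 27.9 CPM (1.59 ± 0.09) and the keratin KRT80 from 110.3, 95.7 and 101 to 48.7, 46.6 and 44.6 CPM (-1.13 ± 0.07), each with an edgeR adjusted p of 1.4e-10. ABC transporters had 12 of 38 higher and 2 lower (5 and 2 with replicate 1 alone).

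Stem cell and drug resistance markers were mixed, with 5 of 19 higher and 6 lower (4 and 4 with replicate 1 alone): BMI1, a Polycomb protein, and SOX4, a transcription factor, had log2 changes of -0.56 and -0.71, and NT5E, the surface enzyme CD73, 0.63. Genes of epithelial to mesenchymal transition had 2 of 16 higher and 2 lower (0 and 1 with replicate 1 alone).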
